A study of Homo sapiens with 4 samples.

Results

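The genes described here are the D-type cyclins, the kinases they activate, the inhibitors of those kinases and the retinoblastoma gene, followed through siRNA knockdown of hTrmt13 in MDA-MB-231 cells. They were picked by gene symbol, and all 10 symbols (CCND1, CCND3, CDK4, CDK6, CDKN1A, CDKN1B, CDKN1C, CDKN2A, CDKN2C and RB1) were found among the 28930 symbols of the count table. MDA-MB-231 is an established human triple-negative breast cancer line. The knockdown group held 2 libraries of cells given an siRNA against hTrmt13, and the control group held 2 libraries of the same line labelled as control. hTrmt13, encoded by TRMT13, is a tRNA methyltransferase, and the series set out to find genes whose transcription it affects.

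D-type cyclins carry growth factor signals into the cell cycle. They bind CDK4 or CDK6, and the active kinases phosphorylate the retinoblastoma protein, which otherwise holds back E2F factors and the S-phase genes they drive. Inhibitors of the INK4 family bind CDK4 and CDK6 themselves, whereas CIP/KIP inhibitors bind cyclin-CDK complexes, restrain CDK2 and can also help cyclin D-CDK4 complexes to assemble. CCND1 is a frequent oncogene of breast cancer. MDA-MB-231 cells are known to have lost the CDKN2A locus.

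The libraries held between 9777267 and 13098985 counts. Levels are given as CPM, counts scaled to library size with TMM factors, and 1 CPM rested on 9.58 to 13.4 counts. The mitochondrial share of counts was 6.25% and 5.18% in the knockdown libraries and 6.88% and 4.82% in the control libraries. TRMT13 stood at 3.52 and 4.79 CPM in the knockdown libraries, against 14.9 and 18.9 CPM in the control libraries, so each library went with its label (log2 fold change −2.02, SE 0.34, edgeR adjusted p = 0.0399). All 5 markers of this line were detected. VIM was at 1804 and 1845 CPM in the knockdown libraries and 1769 and 1821 CPM in the control libraries, and MSN did not pass (log2 fold change 0.28). EGFR fell (−1.78, edgeR adjusted p = 0.0303), and CD44 and AXL stood at −0.79 and −0.72 without passing, their groups apart. Of 5 genes known to be low or absent in this line, ESR1 and PGR had 0 counts, CDH1 at most 0.10 CPM and EPCAM at most 6.34 CPM, whereas ERBB2 was at 112.0 to 166.3 CPM. Of 4 blood cell markers, CD3E and CD79A had 0 counts and PTPRC and CD14 had 1 to 12 per library, with a summed level of 0.761 and 1.124 CPM in the knockdown and 0.851 to 0.94 CPM in control. The endothelial marker VWF had at most 13 counts. Of 3 fibroblast markers, DCN had 0 counts and COL1A1 and PDGFRB were detected, with a summed level of 50.6 and 31.98 CPM in the knockdown libraries against 70.6 and 55.9 CPM in the control libraries. The 4 luminal markers summed to 941.9 and 810.1 CPM in the knockdown libraries against 1170 and 1056 CPM in the control libraries. Most of this sum was KRT8 (506.8 to 695.6 CPM over the libraries) and KRT18 (292.5 to 455.0 CPM). GATA3 was at 4.19 to 8.74 CPM and FOXA1 at 6.28 to 10.98 CPM. The part of these markers in the results was not tested.

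Of 13022 genes tested with edgeR, 389 (2.99%) passed a Benjamini-Hochberg adjusted p of 0.05, of which 255 (1.96%) were lower in the knockdown. Those higher in the knockdown numbered 134 (1.03%), and 24% of tested genes had an unadjusted p under 0.05. With 1 library left out, the calls numbered 935 (6.93%) when this was knockdown replicate 1, 708 (5.33%) for knockdown replicate 2, 678 (5.05%) for control replicate 1 and 729 (5.49%) for control replicate 2. Other scalings called 3.08% (DESeq2 size factors), 3.25% (upper quartile) and 2.7% (library size alone), a minimum mean of 5 CPM 2.5%, and no filter on low counts 10.5%. The DESeq2 Wald test called 8.67% and limma voom 2.5%. Of the 10 genes of the set, 9 were tested and 4 fell: CCND1, CCND3, CDKN1A and CDKN1C. None rose in edgeR, DESeq2 or limma voom, and 0 higher and 5 lower had an unadjusted p under 0.05 in each. Knockdown libraries lay wholly below control libraries in 6 of the 9, where 26.8% of all tested genes did, and wholly above in CDK4, where 27.5% did. Groups did not overlap in 7 of the 9, beside 54.3% of tested genes. The genes were listed with earlier results known, so these counts describe the set and test nothing. In bulk RNA, fewer cells expressing a gene and less RNA per cell cannot be told apart.

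Of the 10 genes, 8 were matched by symbol to a RefSeq promoter (GRCh38.p14, 250 bases before to 50 after the start). Promoters of CDKN1A and CDKN1B are shown because these sister inhibitors stood at like levels per kilobase in control cells and differed in the knockdown. Capitals mark the GC box GGGCGG on either strand. The first is at chr6:36678464-36678763 and the second at chr12:12717118-12717417, both on the plus strand.
CDKN1A: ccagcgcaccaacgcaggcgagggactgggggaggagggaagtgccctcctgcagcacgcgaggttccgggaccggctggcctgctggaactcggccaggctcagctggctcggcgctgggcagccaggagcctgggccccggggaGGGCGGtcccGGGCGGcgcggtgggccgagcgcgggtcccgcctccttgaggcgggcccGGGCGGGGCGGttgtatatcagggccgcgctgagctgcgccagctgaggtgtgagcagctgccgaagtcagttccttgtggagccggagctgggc
CDKN1B: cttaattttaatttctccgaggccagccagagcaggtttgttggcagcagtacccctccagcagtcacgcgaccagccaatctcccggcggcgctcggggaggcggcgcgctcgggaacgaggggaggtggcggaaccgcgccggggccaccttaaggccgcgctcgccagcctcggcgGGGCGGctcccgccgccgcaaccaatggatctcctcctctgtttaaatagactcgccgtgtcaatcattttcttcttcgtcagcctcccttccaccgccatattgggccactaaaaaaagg
The CDKN1A window held 4 GC boxes, starting at −104, −94, −45 and −40 from the transcript start, the last 2 sharing a base. In CDKN1B there was 1, at −71. Of 35116 RefSeq promoter windows of this length, 45% held a GC box. Neither window held, on either strand, the TATA letters TATAAA (11.5% of windows), the E-box CACGTG (7.26%) or the AP-1 site TGAGTCA (4.95%). The CRE or ATF site (TGACGTCA or TAACGTCA, 2.18%) and the E2F site (TTTCCCGC, TTTGGCGC or TTTCGCGC, 2.74%) were not found there either. These matches describe the sequence only.

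Among D-type cyclins, both expressed genes were lower in the knockdown. CCND1, on chromosome 11, encodes cyclin D1 and had 239.9 and 243.4 CPM in the knockdown libraries, against 1252 and 1065 CPM in the control libraries. Knockdown libraries lay within a few CPM of each other and far below both control libraries. The log2 fold change was −2.26 (SE 0.21, 95% interval −2.76 to −1.76, edgeR adjusted p = 0.0229). ORAOV1, a gene on the opposite strand that overlaps CCND1 by 497 exonic bases in GENCODE v29 (there named LTO1), had 34.0 and 24.0 CPM in the knockdown and 39.2 and 28.5 CPM in the control libraries.

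CCND3, on chromosome 6, encodes cyclin D3. Its knockdown libraries had 32.8 and 30.7 CPM, against 68.4 and 83.2 CPM in control, and the groups did not overlap. CCND3 fell 2.39-fold (log2 fold change −1.25, SE 0.24, edgeR adjusted p = 0.0467), close to the threshold. It was no longer called when knockdown replicate 2 was left out (−1.21, adjusted p = 0.0587), when control replicate 2 was (−1.11, 0.108), or under scaling by library size alone (−1.24, 0.0519). CCND2, which encodes cyclin D2, had 0 counts in all 4 libraries.

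CCND1 made up most reads of D-type cyclins throughout. Its share was 87.97% (95% exact binomial interval 86.7 to 89.1) and 88.8% (87.7 to 89.8) in the knockdown libraries, against 94.8% (94.4 to 95.2) and 92.8% (92.3 to 93.2) in the control libraries. These intervals cover counting error only. The mean was 88.4% ± 0.58 in the knockdown and 93.8% ± 1.46 in control (SD, n = 2 each), and both knockdown libraries lay below both control libraries. An exact two-sided permutation test gave p = 0.333, the smallest that 2 against 2 allows.

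The kinase genes did not pass the test. CDK4, on chromosome 12, encodes a kinase partner of D-type cyclins and had 161.8 and 158.3 CPM in the knockdown libraries, against 125.8 and 144.7 CPM in the control libraries. Knockdown libraries were both the higher, by less than the test could call (log2 fold change 0.24, SE 0.21, 95% interval −0.25 to 0.73, edgeR adjusted p = 0.521). TSPAN31, on the opposite strand, shares 1078 of the 2076 exonic bases of CDK4 in GENCODE v29, and with no strand setting given, reads in that stretch cannot be assigned. TSPAN31 itself had 18.2 and 17.4 CPM in the knockdown and 26.9 and 12.6 CPM in the control libraries.

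CDK6, on chromosome 7, encodes the sister kinase. It had 57.2 and 80.1 CPM in the knockdown libraries, against 78.7 and 95.99 CPM in the control libraries, and the groups overlapped (log2 fold change −0.35, SE 0.26, 95% interval −0.96 to 0.27, edgeR adjusted p = 0.458). In each library CDK6 gave fewer reads than CDK4, at 0.354 and 0.506 reads per CDK4 read in the knockdown libraries and 0.626 and 0.663 in the control libraries.

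**Figure D1:**
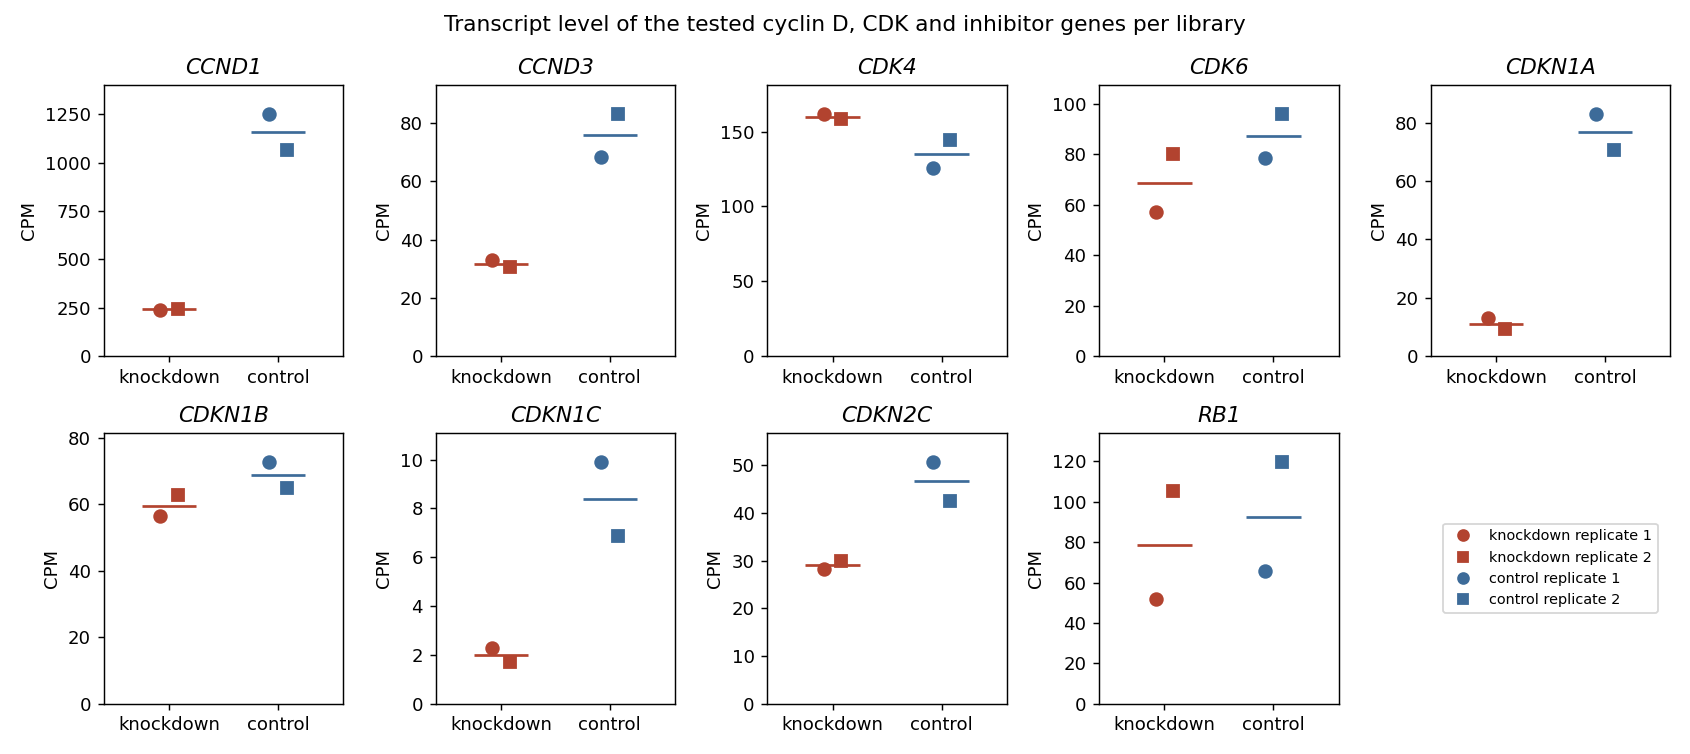
TMM-scaled CPM (y axis, from 0) of the 9 tested genes in each library, with knockdown left of control, circles for replicate 1, squares for replicate 2 and lines for group means. CCND1, CCND3, CDKN1A and CDKN1C sat well below control in both knockdown libraries, and RB1 spread by replicate number within each group.

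Among CIP/KIP inhibitors, 2 of 3 fell. CDKN1A, on chromosome 6, encodes p21, an inhibitor of CDK2 complexes. It had 12.8 and 9.36 CPM in the knockdown libraries, resting on 135 and 125 counts, against 82.99 and 70.8 CPM in the control libraries. No knockdown library came near a control library, and the fall was among the larger ones of the whole table, 96th from the lowest fold change of 13022 genes (log2 fold change −2.79, SE 0.28, 95% interval −3.46 to −2.13, edgeR adjusted p = 0.0229).

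CDKN1C, on chromosome 11, encodes p57, an imprinted inhibitor of low level here. It had 24 and 23 counts in the knockdown libraries, against 95 and 89 counts in the control libraries, or 2.28 and 1.72 CPM against 9.92 and 6.88 CPM. The groups did not overlap, and CDKN1C fell 4.19-fold (log2 fold change −2.07, SE 0.39, edgeR adjusted p = 0.0476). The call ended without knockdown replicate 2 (−1.87, adjusted p = 0.0763), with a minimum mean of 5 CPM (−2.08, 0.0538) and in limma voom (−2.03, 0.0567).

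CDKN1B, on chromosome 12, encodes p27, which is controlled largely by protein turnover. It stood at 56.4 and 62.7 CPM in the knockdown libraries, against 72.9 and 64.8 CPM in the control libraries, a small gap with no overlap that did not pass (log2 fold change −0.21, SE 0.22, 95% interval −0.74 to 0.32, edgeR adjusted p = 0.612). Within each library, CDKN1A gave 0.228 and 0.149 reads per CDKN1B read in the knockdown, against 1.14 and 1.09 in control. In control cells these inhibitor genes gave about equal numbers of reads, and in the knockdown CDKN1A gave far fewer.

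**Figure D2:**
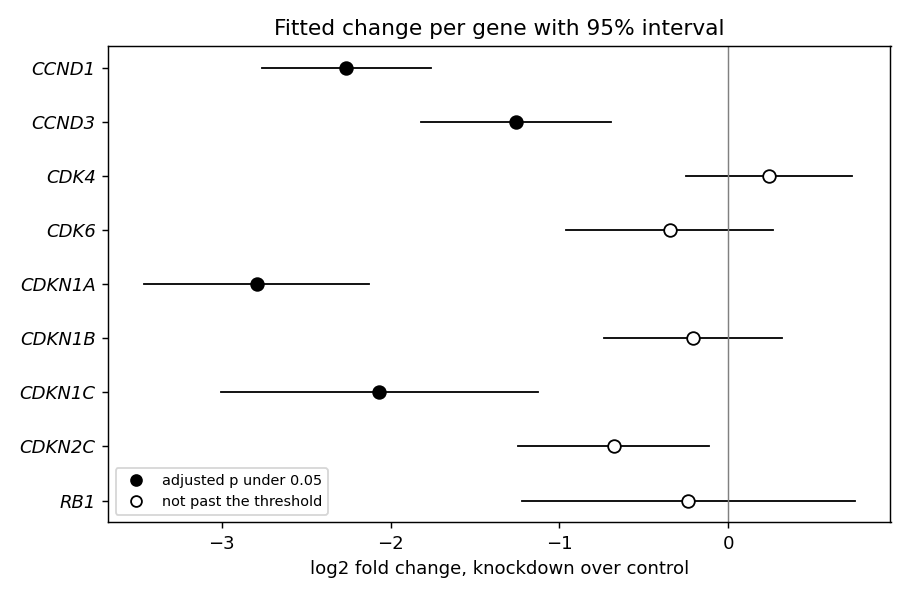
Log2 fold change of knockdown over control (x axis) with its 95% interval from the edgeR fit for the 9 tested genes, filled where the adjusted p was under 0.05. CDKN1A at −2.79 and CCND1 at −2.26 lay farthest from 0, and intervals of CDK4, CDK6, CDKN1B and RB1 spanned 0.

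INK4 inhibitor genes differed in level from absent to moderate. CDKN2A, on chromosome 9, encodes p16 and, in another reading frame, ARF. It had 0 counts in all 4 libraries, which allows up to 0.285 and 0.225 CPM in the knockdown libraries and 0.313 and 0.232 CPM in the control libraries at a limit of 3 counts. CDKN2B, its neighbour, which encodes p15, also had 0 counts.

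CDKN2C, on chromosome 1, encodes p18. It had 28.2 and 29.96 CPM in the knockdown libraries, against 50.7 and 42.5 CPM in the control libraries. The groups did not overlap, but the difference did not pass (log2 fold change −0.68, SE 0.24, 95% interval −1.25 to −0.11, unadjusted p = 0.0257, edgeR adjusted p = 0.154). CDKN2D, which encodes p19, stood at 32.5 and 30.8 CPM in the knockdown libraries and 24.5 and 30.9 CPM in the control libraries (log2 fold change 0.19, SE 0.25, edgeR adjusted p = 0.687). CDKN2D gave 1.15 and 1.03 reads per CDKN2C read in the knockdown libraries, against 0.484 and 0.726 in the control libraries, without overlap.

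RB1, on chromosome 13, encodes the retinoblastoma protein, the substrate of these kinases. It had 51.9 and 105.5 CPM in the knockdown libraries, against 65.6 and 119.8 CPM in the control libraries. Replicate 2 was the higher in each group, and the gap between replicates exceeded that between groups (log2 fold change −0.24, SE 0.41, 95% interval −1.22 to 0.75, edgeR adjusted p = 0.772). Its sign turned when knockdown replicate 1 (0.20) or control replicate 2 (0.27) was left out, which leaves the replicate numbers unbalanced between groups. Between knockdown and control libraries of equal number, the log2 difference of RB1 was −0.34 for replicate 1 and −0.18 for replicate 2.

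CCND1 and CDKN1A were set against each other within each library, which needs no scaling between libraries. There were 18.7 and 25.99 CCND1 reads per CDKN1A read in the knockdown libraries, against 15.1 and 15.1 in the control libraries. Both knockdown ratios lay above both control ratios, and the knockdown libraries differed from each other far more than the control libraries did. On the log2 scale the ratio averaged 4.46 ± 0.34 in the knockdown and 3.91 ± 0.0026 in control (SD, n = 2 each), a difference of 0.54, or 1.46-fold, with exact two-sided permutation p = 0.333, the smallest possible. It was 0.31 without knockdown replicate 2 and 0.78 without knockdown replicate 1. The activator and the inhibitor were thus both lower in the knockdown, with a difference between them that 2 libraries per group could not test.

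Set against its kinase, CCND1 gave 1.48 and 1.54 reads per CDK4 read in the knockdown libraries, against 9.96 and 7.36 in the control libraries. The knockdown libraries agreed closely and lay far below both control libraries.

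**Figure D3:**
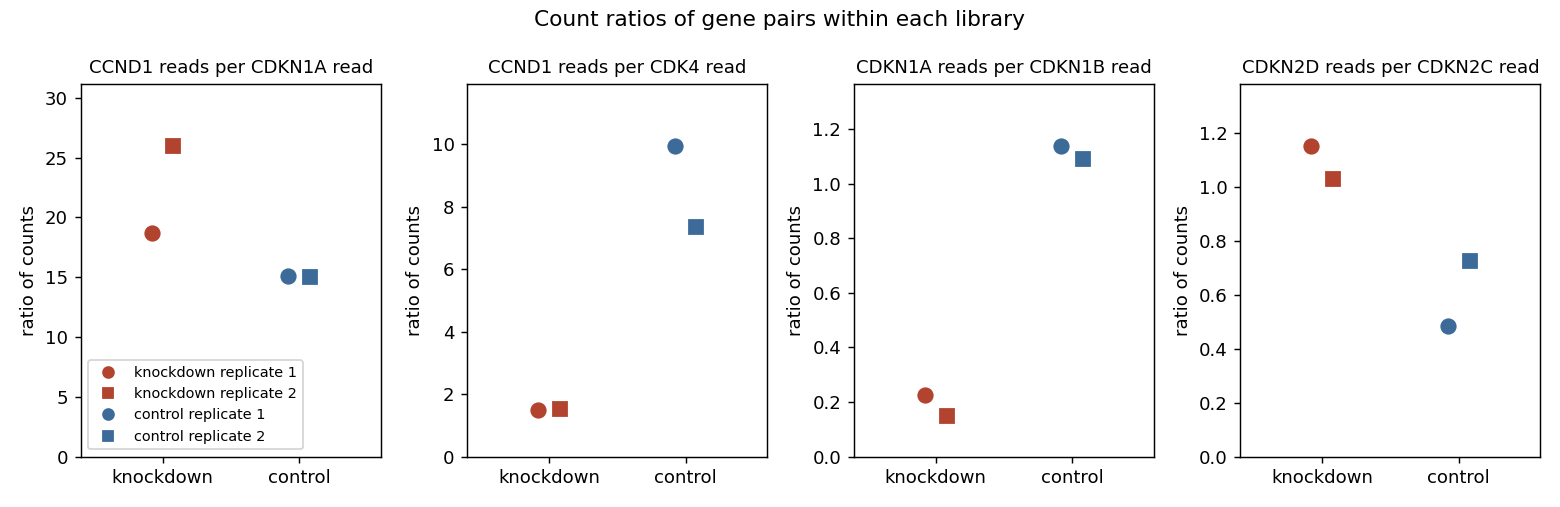
Ratio of counts of a pair of genes within each library (y axis, from 0), with knockdown left of control, circles for replicate 1 and squares for replicate 2. CCND1 per CDK4 and CDKN1A per CDKN1B were lower in both knockdown libraries, and CCND1 per CDKN1A and CDKN2D per CDKN2C were higher.

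Levels of different genes were compared as CPM per kilobase of exon, with exon lengths from GENCODE v29, an annotation that may differ from the one used for counting. In knockdown cells CDK4 stood first at 77.1 ± 1.22, above CCND1 at 54.9 ± 0.55 (SD, n = 2 each). CDKN1B (22.4 ± 1.68), CDKN2D (21.1 ± 0.82) and RB1 (15.7 ± 7.56) came next and did not separate beyond their spread. CDKN2C (8.77 ± 0.37), CCND3 (8.06 ± 0.38), CDK6 (5.85 ± 1.38) and CDKN1A (4.42 ± 0.98) followed, with library values overlapping between the last 2. CDKN1C was lowest at 1.03 ± 0.20.

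In control cells CCND1 came first at 263.1 ± 30.0 CPM per kilobase, ahead of CDK4 at 65.2 ± 6.45 (SD, n = 2 each). CDKN1A (30.6 ± 3.44) led the inhibitors, just above CDKN1B (25.9 ± 2.14). CCND3 (19.2 ± 2.65), RB1 (18.5 ± 7.66) and CDKN2D (18.4 ± 2.98) overlapped one another. By its library values, though not by the SDs, CDKN2C (14.1 ± 1.75) overlapped RB1 alone of these. CDK6 (7.45 ± 1.04) and CDKN1C (4.32 ± 1.10) were lowest.

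**Figure D4:**
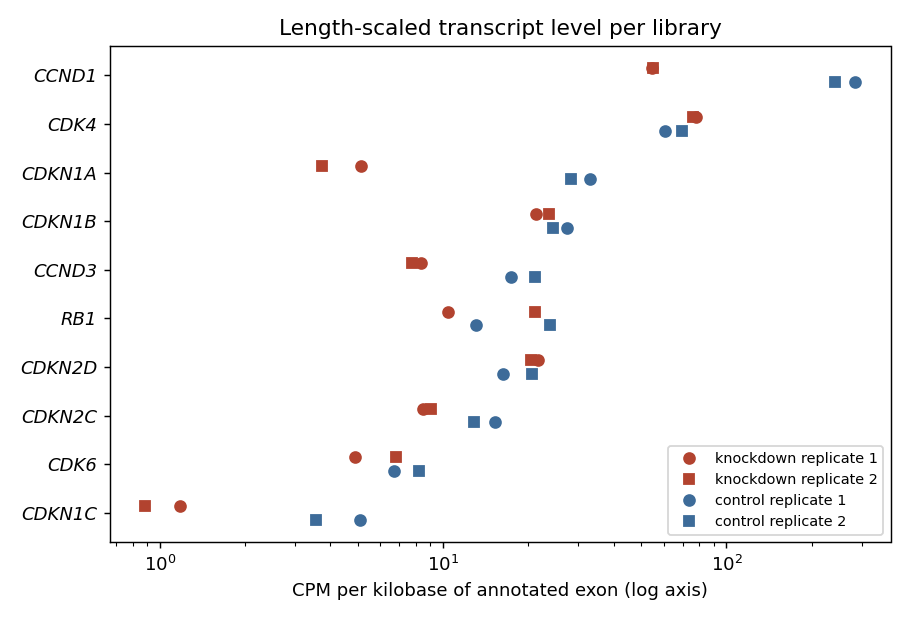
CPM per kilobase of annotated exon on a log axis for 10 genes with counts, in the order of the control mean, with knockdown libraries above control libraries in each row. CCND1 was above CDK4 in control cells and below it in knockdown cells.

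The genes whose 4 library values lay closest to CCND1, by Euclidean distance of centred log2 CPM among 10746 genes of at least 5 CPM, were GOLIM4, CKB and SLC12A7. GOLIM4, a Golgi membrane protein, had 20.6 and 21.9 CPM in the knockdown libraries against 116.2 and 105.5 CPM in the control libraries (distance 0.145). CKB, the brain-type creatine kinase, was at a distance of 0.183 and SLC12A7, a potassium-chloride cotransporter, at 0.215. Among the 3 closest to CDKN1A were CSPG4, the NG2 proteoglycan (0.32), and SPHK1, a sphingosine kinase (0.336). Such closeness rests on 4 libraries and was not tested.

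Downstream of the retinoblastoma protein, all 24 S-phase E2F targets tested had a negative log2 fold change, with a median of −0.87, beside 0.0053 over all tested genes. None passed in edgeR or limma voom, and DESeq2 called 5 lower, beside 8.67% of all tested genes called in either direction. An unadjusted edgeR p under 0.05 was found for 0 higher and 7 lower, beside 24% of all tested genes. MCM7, a subunit of the replicative helicase, led with 88.2 and 123.4 CPM in the knockdown libraries against 183.4 and 276.8 CPM in the control libraries (log2 fold change −1.12, edgeR adjusted p = 0.0842). Its fellow subunits MCM5 (−1.17) and MCM4 (−1.43) followed by p. Replicate 1 lay below replicate 2 in each group, with median log2 differences of −1.2 in the knockdown and −1.04 in control over this list, wider than the difference between groups. Between knockdown and control libraries of equal number, the list median was −1.05 for replicate 1, with 21 genes lower, and −0.84 for replicate 2, with 24 lower. Without a filter on low counts, edgeR called 11 of the 24 lower, beside 10.5% of all genes tested in that fit, in either direction. Leaving out knockdown replicate 1 or 2 gave list medians of −0.39 or −1.49, and leaving out control replicate 1 or 2 gave −1.35 or −0.23.

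At later cell cycle steps, a list of 8 genes held CCNE1, CCNE2, CCNA1, CCNA2, CDK2, CDC25A, and CDK1 and CCNB1, which act mainly in mitosis. It had 0 calls in edgeR, DESeq2 and limma voom, 0 with an unadjusted p under 0.05 and a median of −0.48. Over all tested genes, edgeR called 2.99%, DESeq2 8.67% and limma voom 2.5%, and 24% had an unadjusted edgeR p under 0.05. CDC25A, the phosphatase that activates CDK2, stood at 22.3 and 27.0 CPM in the knockdown libraries against 31.5 and 47.6 CPM in the control libraries, CDK2 at a log2 fold change of −0.46 and CCNE2, a cyclin E gene, at −0.93. That median was −1.19 when knockdown replicate 2 was left out, and above 0 when knockdown replicate 1 (0.07) or control replicate 2 (0.39) was. Median log2 differences of replicate 1 from replicate 2 were −1.51 in the knockdown and −1.48 in control there. Between knockdown and control libraries of equal number, the list median was −0.54 for replicate 1 and −0.41 for replicate 2, with 7 and 8 genes lower.

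Of 10 E2F and DP factor genes, none passed in edgeR or limma voom (median −0.22). DESeq2 called 1 lower, beside 8.67% of all tested genes. An unadjusted edgeR p under 0.05 was found for 0 higher and 2 lower, beside 24% of all tested genes. The activator gene E2F2 had 0.95 and 2.85 CPM in the knockdown libraries against 4.59 and 12.1 CPM in the control libraries (log2 fold change −2.12, SE 0.65, edgeR adjusted p = 0.12). E2F6, a repressor, stood at −0.74 and TFDP1, a dimer partner of E2F, at 0.66. The 7 MuvB and DREAM genes, partners of the RB-like proteins in repressing cell cycle genes, had a median of −0.20 with no call in edgeR, DESeq2 or limma voom and 0 with an unadjusted p under 0.05. Smallest in p were LIN37 (−0.54), LIN9 (−0.89) and RBBP4 (−0.20). Both medians were above 0 when control replicate 2 was left out, at 0.063 and 0.24, and the second was at 0.00067 when knockdown replicate 1 was. Between libraries of equal number, the E2F and DP median was 0.0092 for replicate 1 and −0.28 for replicate 2. The MuvB and DREAM median was −0.20 for replicate 1 and −0.17 for replicate 2. Pocket protein genes RBL2 and RBL1 stood at −0.31 and −0.05. With CDKN2D they are the 3 tested of 5 other D cyclin, INK4 and pocket protein genes, with 0 calls in edgeR, DESeq2 and limma voom, 0 with an unadjusted p under 0.05 and a median of −0.05. That median ran from −0.41 when knockdown replicate 2 was left out to 0.37 when control replicate 2 was. Leaving out 1 library leaves the replicate numbers unbalanced between groups. Between libraries of equal number, the median of this last list was −0.18 for replicate 1 and −0.0037 for replicate 2.

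Genes that act on these proteins after translation also gave no edgeR or limma voom call. Of 17 tested genes for the turnover of D cyclins and KIP inhibitors, 3 higher and 0 lower had an unadjusted p under 0.05. DESeq2 called 1 higher. Over all tested genes, 24% had an unadjusted p under 0.05 and DESeq2 called 8.67%. The median of the turnover list was −0.07, or 0.098 when control replicate 2 was left out. Between libraries of equal number, it was 0.012 for replicate 1 and −0.17 for replicate 2. UBAC1, a cofactor of a ubiquitin ligase for p27, had 48.1 and 35.7 CPM in the knockdown libraries against 20.04 and 21.04 CPM in the control libraries (log2 fold change 1.03, edgeR adjusted p = 0.0815). GSK3B, a kinase that marks cyclin D1 for degradation, had 93.5 and 112.4 CPM in the knockdown libraries against 49.4 and 63.1 CPM in the control libraries (0.87, 0.0971). SKP2, which targets p27, stood at 0.79. Of the 6 genes of the CDK-activating kinase and of CDK4 chaperones, 1 higher had an unadjusted p under 0.05, CDC37, a kinase chaperone at 0.76, followed in p by MNAT1 (0.30) and CDK7 (0.29). DESeq2 called 0 there, and the median was 0.13. It was −0.09 when knockdown replicate 2 was left out, −0.07 when control replicate 1 was, and 0.32 and 0.28 when knockdown replicate 1 or control replicate 2 was. Between libraries of equal number, it was 0.07 for replicate 1 and 0.14 for replicate 2.

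Of 26 tested transcription factors known to act on CCND1 or CDKN1A, none passed in edgeR or limma voom. DESeq2 called 1 higher and 3 lower, beside 8.67% of all tested genes. An unadjusted edgeR p under 0.05 was found for 2 higher and 8 lower, beside 24% of all tested genes. The list median was −0.08, with −0.26 when knockdown replicate 1 was left out and 0.07 when control replicate 1 was. Between libraries of equal number, it was −0.12 for replicate 1 and −0.026 for replicate 2. STAT3, the effector of IL-6 family cytokines, had 269.7 and 243.7 CPM in the knockdown libraries against 142.6 and 134.4 CPM in the control libraries (log2 fold change 0.89, SE 0.20, edgeR adjusted p = 0.0672). FOXO1, a forkhead factor restrained by AKT, had 8.65 and 11.01 CPM in the knockdown libraries against 23.4 and 20.9 CPM in the control libraries (−1.17, SE 0.29, 0.0747). SMAD3, a mediator of TGF-beta signals, had 259.0 and 198.9 CPM in the knockdown libraries against 452.4 and 386.0 CPM in the control libraries (−0.87, SE 0.23, 0.0882).

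**Figure D5:**
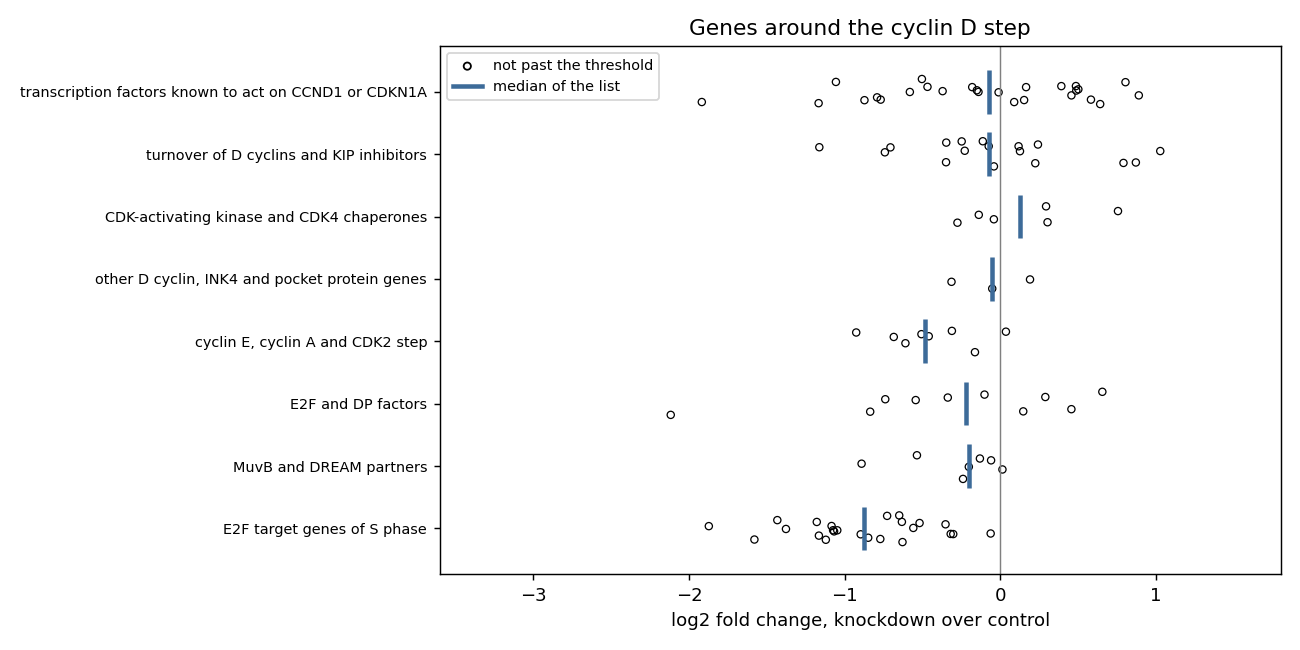
Log2 fold change of knockdown over control (x axis) of each tested gene in 8 lists around the cyclin D step (rows), all open because no edgeR adjusted p was under 0.05, with list medians as bars. All 24 S-phase E2F targets lay below 0, and the lists of turnover genes and of transcription factors lay on both sides.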

How the data were processed

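RNA was isolated with Trizol and made into TruSeq libraries, per the labels' protocols. Per the file headers, the authors deposited 1 table of read counts, whole and not normalized, with a column for each library and a row for each gene symbol. Tools listed in the submitters' processing notes, with no role, are limma, HTSeq 0.6.1, STAR 2.5.2b and cutadapt. The builds listed there are GRCh37 and hg19. Annotation, strand setting and filters: not given in the sources used here. Overlapping genes on opposite strands can therefore share or lose reads. The main test was edgeR 4.0.16 under R 4.3.3 (TMM, filterByExpr with minimum count 10 and minimum total 15, quasi-likelihood test, no covariate), with p adjusted over all 13022 genes tested. Alternatives included DESeq2 1.42.0 and limma 3.58.1 voom. Replicates differed by more than counting noise, at 44.5 (knockdown) and 40.4 (control) chi-square units per degree of freedom. No label says that replicates were separate cultures, so p-values measure the spread between these libraries, which may be technical. The genes and lists were chosen with earlier results of these data known. All 10 genes of the set were named. From each list described here, called genes were named, or otherwise up to 3 with the smallest p. For CCND1 and CDKN1A the nearest 3 genes were sought. Some results under these rules are not reported here. The fit was also run on simulated counts drawn independently for each library. These held no tie between equally numbered replicates, so they could not check the fit in that respect.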

Additional observations from a re-analysis of the deposited data

How the results depend on the processing

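CCND1 and CDKN1A kept their direction and their call in all 12 alternatives, at log2 fold changes from −2.37 to −2.14 and from −3.03 to −2.58, which are also their ranges when 1 library was left out. Over the 9 tested genes, 99 values kept direction and side of the threshold, 6 lost their call (those of CCND3 and CDKN1C given above), 1 gained it and 2 turned sign (RB1, at 0.27 without control replicate 2 and 0.20 without knockdown replicate 1; its range with 1 library left out was −0.84 to 0.27). The count of changed genes moved from 389 to 1949 with no filter on low counts and to 1129 in the DESeq2 Wald test, and to between 678 and 935 with 1 library left out. The cause was not tested. With the replicate number as a block it was 5227 of 13022 genes tested, and CDKN2C passed as well (log2 fold change −0.67, edgeR adjusted p = 0.00294). In that fit 20 of the 24 S-phase E2F targets and 4 of the 8 genes of the cyclin E list were called lower, and 0 higher in either list. Deviations of equally numbered replicates correlated across genes (r = 0.617), and the titles of equally numbered libraries carry neighbouring codes. The labels do not say what a number marks, so the main test used no block. A pairing by number, if there was one, was thus left out of it, and the calls depend on that choice. The CCND1 share difference ran from −6.44 to −4.38 percentage points and the CCND1 to CDKN1A difference from 0.31 to 0.78. Of 96 medians of the 8 lists described, 81 moved by less than the spread between replicates (pooled SD of library medians) and 15 by more. That spread was wide in some lists, at 0.97 for the cyclin E list and 0.84 for S-phase E2F targets. A median that turned sign, as that of the cyclin E list did at 0.39, could thus count among the smaller moves. CDKN1C had 23 to 95 counts per library, the fewest of the 9 tested genes.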
